A study of Mus musculus with 12 samples.

Results

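The genes described here are 9 that belong to the checkpoint system of T cells: the inhibitory receptor genes Pdcd1, Ctla4, Lag3, Havcr2, Tigit and Cd160, the costimulatory receptor gene Icos, the ligand gene Cd200 and the transcription factor gene Tox. They were chosen by symbol, and all 9 were found among the 18929 gene rows of the expression table. Every one of the 9 passed the filter on low values (a value over 10 in at least 3 libraries), which 12699 genes passed. The data are RNA-seq libraries of C57BL/6 T cells kept for 5 days in T helper 1 (Th1) conditions, the culture that drives helper cells to make interferon gamma, and sorted before RNA extraction. The control group has 3 libraries labelled WT, and the other group 3 libraries labelled Sdhc cKO, in which Sdhc is targeted. Sdhc encodes a membrane-bound part of complex II, the succinate dehydrogenase of mitochondria, and cKO stands for conditional knockout. The sources used here do not give the driver of the deletion, the controls' other alleles, the animals' age or the sort markers. Of the series' 12 samples, 6 in 3 other groups (25a1 KO, 25a11 KO and EV Transduced) were not analysed here. The series' title names mitochondrial metabolism and the uncoupling of T cell differentiation from function, so the comparison asks how these receptors' transcripts stood where complex II was targeted.

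Checkpoint receptors are surface proteins that a T cell gains after its antigen receptor has fired. Many of the inhibitory ones carry tail motifs that bring phosphatases or other brakes to the receptor, or compete with CD28 for its ligands, while ICOS adds a costimulatory signal through PI3 kinase. Activated helper cells carry several at once, and their lasting joint presence, under factors such as TOX, is known from exhausted T cells.

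Values are normalised counts, gene reads divided by 1 size factor per library. The libraries held 18144933 to 21983821 counted reads. Targeting was not visible in the gene's own count: Sdhc had 1726 ± 149 normalised counts in the controls and 1556 ± 102 in the cKO libraries (SD, n = 3 each), and a gene count does not resolve the deleted part. The cells bore the marks of helper T cells, with 10113 to 11045 normalised counts of Cd4 per library and 1371 to 1961 of Tbx21, the gene of the Th1 factor T-bet, against 235 to 547 for Cd8a and Cd8b1 together. For the antigen receptor gene Cd3e the controls averaged 9113 ± 587 and the cKO group 9155 ± 776, and for Cd3d 7192 ± 509 and 8145 ± 1860. Cd3d passed in edgeR with the share of Y-linked reads as a covariate (log2 fold change 0.34, adjusted p = 0.0329), as did 5.28% of all tested genes. Among B cell genes, Ms4a1 stayed below 10 in every library, Cd79a had 17.0 ± 1.11 and 23.2 ± 10.4, Cd79b 31.2 ± 3.54 and 28.7 ± 9.29, and Ighm 1750 ± 168 and 1896 ± 112. The libraries were not alike within a group. Reads on 4 Y-linked genes made up 0.048 RPM (reads scaled to a common depth) in control 1 and 0.207 RPM in cKO 1, against 55.1 to 193 RPM in the other 4 libraries, and control 1 and cKO 1 also stood apart on the main axis of variation (49.1% of the variance). Xist, transcribed from the inactive X chromosome of females, had 9780, 2491 and 6406 normalised counts in controls 1 to 3 against 7565, 0 and 2.15 in cKO 1 to 3. Controls 2 and 3 thus held both Xist and Y-linked reads, cKO 2 and cKO 3 Y-linked reads with Xist at or near 0, and the number 1 libraries Xist with almost no Y-linked reads, so the sex of the source differed within and between the groups. The labels give neither sex nor animals. The libraries of a group were therefore not all repeats of 1 source, but whether each is a separate animal is not stated, and the p-values reflect no more than how these libraries scatter.

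Havcr2 was the member with the largest difference, at 46.3% of the control level in the cKO libraries. No member passed the test over all genes (limma, adjusted p under 0.05), where 0 of 12699 genes did, a background of 0.0%. Havcr2 and Icos were lower in every cKO library than in any control. That is 2 of 9 members, beside 5.64% of all tested genes. No member was higher in every cKO library, beside 4.51% of tested genes. Fold changes were negative at 7 of 9 members and at 54.1% of all tested genes, and the median log2 fold change (log2FC) was -0.19 for the members and -0.01 for all tested genes. With the share of Y-linked reads as a covariate, 5 of 9 were negative and the median was -0.06 in limma. It was -0.07 without control 1, -0.12 without cKO 2, -0.07 without cKO 3 and -0.10 in the libraries numbered 2 and 3 alone. With 9 members chosen with earlier results known, no test was made over them.

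**Figure D1:**
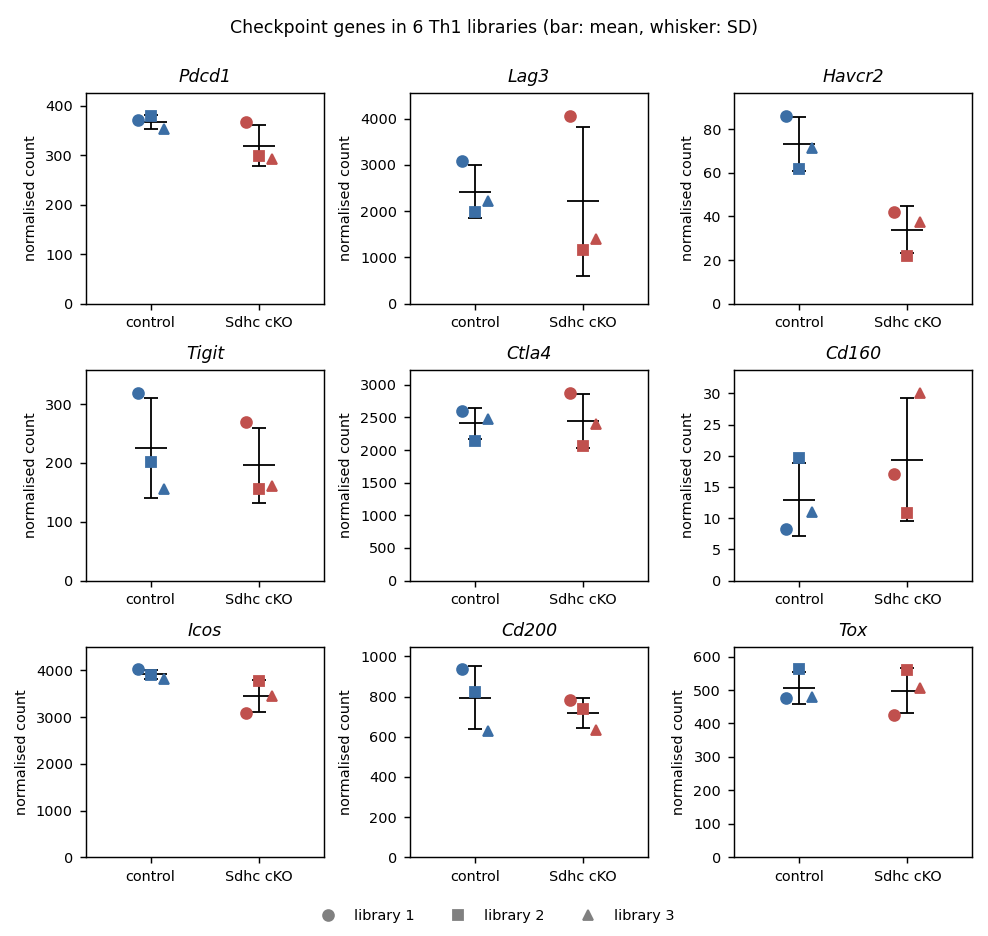
Normalised counts of the 9 genes in each library; the vertical axes start at 0, the points are libraries numbered 1 to 3 in the control and Sdhc cKO groups, the bar is the mean and the whisker the SD. The Havcr2 points do not overlap between the groups (61.7 or more in control, 42.2 or less in cKO), while the Lag3 points of control 1 and cKO 1 stand above the others.

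The levels spread over more than 2 orders of magnitude when set per length, as normalised counts per kb of merged exon. Lag3 (1099 per kb, mean of 6 libraries), Icos (1073 per kb) and Ctla4 (1042 per kb) formed the top of the order and did not differ beyond their spread, with ranges over the 6 libraries of 549 to 1926, 902 to 1172 and 885 to 1236 per kb. Their means lay above those of 93.6% to 94.0% of the tested genes that had a length, which are those whose symbol was found once in the gene annotation. Next came Tigit at 229 per kb, Cd200 at 228 per kb and Pdcd1 at 178 per kb, whose ranges (170 to 348, 189 to 282 and 152 to 197) overlapped. Tox stood alone at 66.0 per kb (56.1 to 73.8). Havcr2, at 19.7 per kb (7.97 to 31.7), and Cd160, at 6.12 per kb (3.16 to 11.4), were the lowest, and their ranges overlapped.

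**Figure D2:**
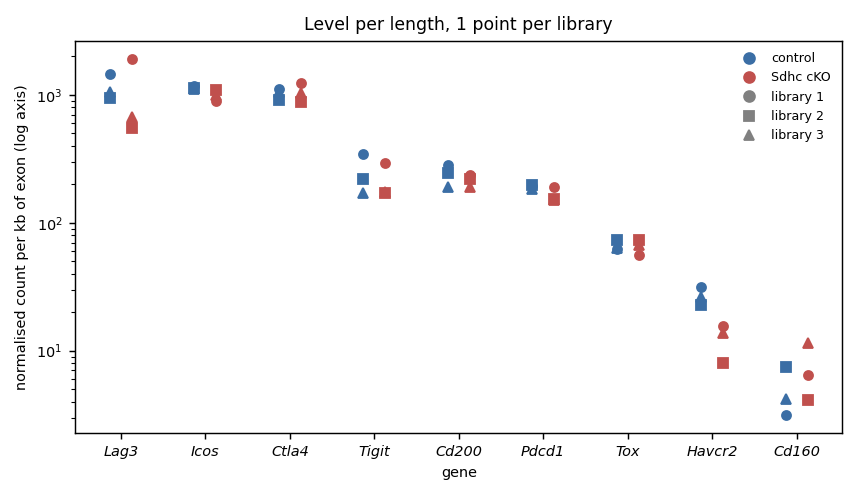
Normalised counts per kb of merged exon on a log axis, 1 point per library, genes ordered by their mean. Lag3, Icos and Ctla4 share the top near 1099, 1073 and 1042 per kb, and Cd160 is lowest at 6.12 per kb.

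Havcr2 encodes TIM-3, an inhibitory receptor of interferon gamma-producing T cells that binds galectin-9 and is also carried by NK cells, dendritic cells and other myeloid cells. The gene lies on chromosome 11 (46454935 to 46481255, plus strand, GRCm38). Its normalised counts were 86.1, 61.7 and 71.5 in controls 1 to 3 against 42.2, 21.7 and 37.7 in cKO 1 to 3, from 93, 63 and 65 reads and 42, 24 and 35 reads. Every control was thus above every cKO library, and each cKO library was at 0.351 to 0.527 of the control with its number. Averages of 73.1 ± 12.3 and 33.8 ± 10.8 (SD, n = 3 each) gave a log2FC of -1.13 (SE 0.28, 95% interval -1.79 to -0.47). Over all genes it did not pass (limma adjusted p = 0.978, unadjusted p = 0.00438; 3.5% of tested genes had an unadjusted p under 0.05). An exact permutation test (2-sided) gave 0.1, the smallest p that 3 against 3 allows. Only 12 of 12699 tested genes, 0.0945%, had a log2FC of -1 or lower, Havcr2 among them.

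Under other fits the Havcr2 difference kept its direction and stayed short of the threshold. Its log2FC was -0.93 (SE 0.25) with the share of Y-linked reads as a covariate, where limma gave an adjusted p of 0.0528 and edgeR one of 0.0595. That covariate also raised the number of genes called over all genes to 826 of 12699 (6.5%) in limma and 670 (5.28%) in edgeR. The share itself was unequal between the groups. It was 0.048, 131 and 55.1 RPM in controls 1 to 3 against 0.207, 193 and 189 in cKO 1 to 3. Genotype and share are therefore not fully separated in these fits. With the replicate number as a block the limma adjusted p of Havcr2 was 0.244. In the 4 libraries numbered 2 and 3 alone, the log2FC was -1.19 (SE 0.30, limma adjusted p = 0.651); number 1, with 1 library in each group, gave a ratio of 0.490.

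Ifng, the gene of interferon gamma itself, had 1342, 1461 and 1342 normalised counts in controls 1 to 3 against 858, 880 and 865 in cKO 1 to 3, with no overlap and little spread within the cKO group. Its log2FC was -0.67 (SE 0.07, limma adjusted p = 0.265). It passed with the replicate block and in edgeR with the Y-linked share (log2FC -0.67, adjusted p = 0.00431). The edgeR fit called 5.28% of all tested genes.

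Genes listed as markers of other cell types, among them the NK and myeloid cells that carry TIM-3, were read as sums. NK cell genes, 8 of 8 in the table, summed to 508 to 526 normalised counts in the controls and 342 to 432 in the cKO libraries, sums that did not overlap. Eomes, which T cells also express, gave 106 to 366 of it per library; without Eomes, a sum added after its values were seen, the other 7 gave 403, 161 and 213 in controls 1 to 3 against 294, 110 and 132 in cKO 1 to 3, which overlapped. Klra8 and Klra4 stayed below 10 in every library, and the defining NK gene Ncr1 in every library but control 3. Gamma delta T cell genes, 6 of 7 listed, summed to 274 to 337 in the controls and 175 to 246 in the cKO libraries, sums that did not overlap. The listed gene Trdc had no values under that symbol, and Trdv4 and Cd163l1 stayed below 10 in every library. All 4 tested genes, the constant-region genes Tcrg-C1, Tcrg-C2 and Tcrg-C4 among them, had a negative log2FC (-0.67 to -0.52), and 0 passed the test. A negative log2FC was seen at 54.1% of all tested genes. Groups did not overlap at 2 of the 4, Tcrg-C1 and Tcrg-C4, beside 5.64% of all tested genes lower without overlap. Myeloid and dendritic cell genes, 8 of 10 listed, summed to 259 to 430 and 306 to 335, which overlapped, and their defining markers Lyz2, Csf1r, Cd14 and Flt3 were below 10 in every library. The rest was mostly H2-Ab1 (150 ± 47.6 and 135 ± 38.5), Cd74 (139 ± 54.9 and 110 ± 13.7) and Itgam (24.4 to 80.3 per library). The part of NK and gamma delta T cells in the Havcr2 difference was not tested. In these bulk libraries, fewer cells of a type and less RNA per cell cannot be told apart. Nor do they show which cells made a marker transcript, so the sums are not cell numbers.

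The sequence before the Havcr2 start site is shown because Havcr2 had the largest difference of the 9, and those of Tigit and Ctla4 because these 2 genes were highest in the same 2 libraries. Each is the 250 bases before the RefSeq start (GRCm38.p6), written 5′ to 3′ on the gene's strand: Havcr2 at chr11:46454681-46454930 (plus), Tigit at chr16:43664185-43664434 (minus) and Ctla4 at chr1:60908775-60909024 (plus). Capitals mark matches, on either strand, to 3 motifs searched: TGANTCA for AP-1, GGAAAA for NFAT and GGTGTGA for T-box factors such as T-bet.
Havcr2: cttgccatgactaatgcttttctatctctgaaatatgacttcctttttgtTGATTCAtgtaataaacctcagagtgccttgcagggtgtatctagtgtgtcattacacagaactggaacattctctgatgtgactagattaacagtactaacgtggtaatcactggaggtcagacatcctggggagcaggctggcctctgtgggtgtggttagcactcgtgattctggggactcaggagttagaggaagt
Tigit: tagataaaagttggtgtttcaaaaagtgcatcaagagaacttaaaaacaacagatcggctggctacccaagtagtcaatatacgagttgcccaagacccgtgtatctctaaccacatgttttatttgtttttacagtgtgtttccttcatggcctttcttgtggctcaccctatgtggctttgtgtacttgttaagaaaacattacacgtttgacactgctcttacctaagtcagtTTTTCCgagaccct
Ctla4: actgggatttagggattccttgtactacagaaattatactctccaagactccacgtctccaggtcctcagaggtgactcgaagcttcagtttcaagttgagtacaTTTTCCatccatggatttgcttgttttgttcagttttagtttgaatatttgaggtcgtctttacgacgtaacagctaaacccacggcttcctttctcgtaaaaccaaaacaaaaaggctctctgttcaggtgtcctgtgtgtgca
The Havcr2 window held 1 AP-1 match, beginning 200 bases before the start, and no match to the other 2 motifs. Tigit and Ctla4 held 1 NFAT match each, beginning 14 and 145 bases before the start. Of 32851 promoter windows of this length, 6.75% held the AP-1 letters, 20.43% the NFAT letters and 3.33% the T-box letters. The RefSeq table held windows for 6 of the 9 members, and Lag3, which was also highest in those 2 libraries, had none. The Ctla4 window lies inside the gene's annotated span (60887000 to 60915832), not before its outermost start.

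Pdcd1 encodes PD-1, which recruits the phosphatase SHP-2 (gene Ptpn11) on binding PD-L1 or PD-L2 and dampens CD28 and antigen receptor signals. Located on chromosome 1 (94038305 to 94052553, minus strand), it had 371, 379 and 352 normalised counts in controls 1 to 3 against 367, 298 and 293 in cKO 1 to 3. Controls lay close together, and cKO 1 lay among them while cKO 2 and cKO 3 were below. The log2FC was -0.21 (SE 0.12, 95% interval -0.48 to 0.06, limma adjusted p = 0.978), and an exact permutation test (2-sided) gave 0.2. Within same-numbered pairs the cKO value was 0.987, 0.786 and 0.832 of the control, lower in 3 of 3 pairs, as at 21.8% of tested genes.

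Ctla4, on the same chromosome (60887000 to 60915832, plus strand), encodes the receptor that takes CD80 and CD86 from CD28. Its counts were 2604, 2143 and 2475 in controls 1 to 3 against 2880, 2063 and 2401 in cKO 1 to 3. The cKO range, 2063 to 2880, enclosed that of the controls, 2143 to 2604, and the SD was 411 in cKO against 238 in control. The log2FC was 0.02 (SE 0.13, 95% interval -0.29 to 0.32), and the limma adjusted p was 0.997.

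Lag3 encodes a CD4-related receptor that binds MHC class II and FGL1. It lies on chromosome 6 (124904361 to 124911705, minus strand). The normalised counts were 3083, 1981 and 2210 in controls 1 to 3 against 4063, 1159 and 1409 in cKO 1 to 3. The cKO group thus held the highest library, cKO 1, and the 2 lowest, cKO 2 and cKO 3. With a within-group SD of 0.73 on the log2 scale, Lag3 varied more between libraries of 1 group than 97.0% of tested genes. The log2FC was -0.34 (SE 0.43, 95% interval -1.34 to 0.66, limma adjusted p = 0.978). Its direction depended on which libraries entered: cKO 1 was at 1.32 of control 1, while cKO 2 and cKO 3 were at 0.585 and 0.638 of their controls. In the 4 libraries numbered 2 and 3 alone the log2FC was -0.71 (SE 0.10, limma adjusted p = 0.151), and without cKO 1 it was -0.90. Without cKO 2 it was 0.01, without control 1 it was -0.16 and without cKO 3 it was -0.13. With the Y-linked share as a covariate it was 0.16 (SE 0.13, limma adjusted p = 0.443).

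Tigit encodes an inhibitory receptor that competes with CD226 for the ligand PVR (CD155), and lies on chromosome 16 (43648867 to 43664146, minus strand). It had 320, 201 and 156 normalised counts in controls 1 to 3 against 269, 156 and 161 in cKO 1 to 3. As with Lag3 and Ctla4, control 1 and cKO 1 were the 2 highest libraries; the same held at 19.7% of tested genes. The log2FC was -0.19 (SE 0.30, 95% interval -0.88 to 0.51, limma adjusted p = 0.984). It was 0.10 without control 1, -0.42 without control 3, -0.44 without cKO 1, -0.05 without cKO 2, -0.07 without cKO 3 and 0.08 with the Y-linked share as a covariate. NK markers did not all move together over these libraries. Klrk1 was also highest in control 1 and cKO 1 (239 and 174 normalised counts, against 53.8 to 89.2 in the other 4), as was Klrd1 (86.1 and 62.3, against 38.0 to 56.1). Klrb1c was too (30.6 and 31.1, against 4.52 to 8.80), and so was the sum of the 7 NK genes without Eomes (403 and 294, against 110 to 213). Klra7 was highest in control 1 (43.5), but control 3 (34.1) lay above cKO 1 (25.1). Klrb1c and Klra7 were named after their values were seen. Eomes, which T cells also express, was lowest in control 1 and cKO 1 (106 and 138, against 231 to 366), and Ncr1 was at 3.7 and 2.0 there. The part of NK cells in the Tigit and Lag3 levels was not tested.

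Cd160, the gene of a receptor for HVEM (gene Tnfrsf14) found mainly on cytotoxic cells, was near the limit of detection. It lies on chromosome 3 (96798763 to 96829351, minus strand), and 68 bases of its exons overlap Pdzk1 on the other strand, which the counting may not separate. It had 9, 20 and 10 reads in controls 1 to 3 against 17, 12 and 28 in cKO 1 to 3. The groups overlapped, and the log2FC of 0.51 (SE 0.46, 95% interval -0.55 to 1.57, limma adjusted p = 0.978) was not distinguishable from 0 at this depth. It ranged from 0.15 without cKO 3 to 0.84 without cKO 2.

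**Figure D3:**
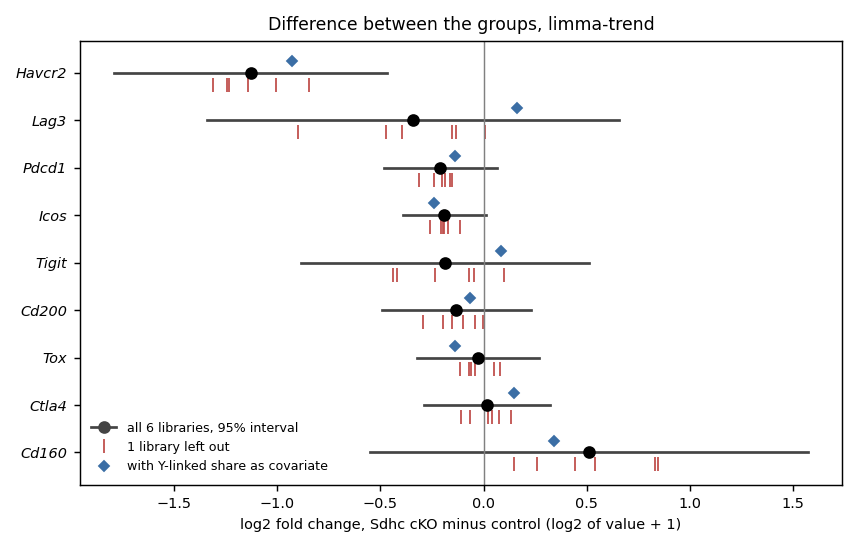
Log2FC of each gene, Sdhc cKO minus control: circle and line, estimate and 95% interval from all 6 libraries; red ticks, estimates with 1 library left out; diamonds, estimates with the Y-linked share as a covariate. The Havcr2 interval (-1.79 to -0.47) is the one that does not cross 0, and the Lag3, Tigit, Ctla4 and Tox estimates lie on both sides of 0.

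Icos encodes the inducible costimulator, which binds ICOS ligand and activates PI3 kinase. It lies on chromosome 1 (60977927 to 61000320, plus strand) beside Ctla4. The normalised counts were 4021, 3912 and 3816 in controls 1 to 3 against 3095, 3780 and 3457 in cKO 1 to 3. The groups did not overlap, but cKO 2 lay close under the lowest control, and the SD was 342 in cKO against 103 in control. The cKO mean was 87.9% of control, a log2FC of -0.19 (SE 0.09, 95% interval -0.39 to 0.01). It did not pass over all genes (limma adjusted p = 0.978). The exact permutation test, 2-sided, gave the smallest possible p of 0.1. The adjusted p was 0.0644 in limma and 0.0923 in edgeR with the Y-linked share as a covariate. Without cKO 1, the lowest library, the log2FC was -0.12, and in the 4 libraries numbered 2 and 3 alone it was -0.10 (SE 0.07).

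Cd200 encodes a membrane glycoprotein that signals to the inhibitory receptor CD200R on other cells, and lies on chromosome 16 (45382135 to 45409053, minus strand). It had 935, 821 and 628 normalised counts in controls 1 to 3 against 784, 738 and 634 in cKO 1 to 3. The cKO values lay inside the range of the controls. The log2FC was -0.13 (SE 0.16, 95% interval -0.49 to 0.23, limma adjusted p = 0.978). It was -0.29 without control 3, the lowest control, -0.00 without control 1, the highest, and between -0.20 and -0.04 with any other library left out. The gene of its receptor, Cd200r1, had 158 ± 25.5 and 178 ± 50.1 normalised counts.

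Tox encodes an HMG-box factor that maintains the exhausted state of T cells and takes part in CD4 T cell development. It spans chromosome 4 from 6686353 to 6991557 on the minus strand, and 260 bases of its exons overlap the antisense gene Gm11802. Its counts of 475, 562 and 481 in controls 1 to 3 against 427, 561 and 507 in cKO 1 to 3 interleaved, with control 2 and cKO 2 highest and almost equal. The log2FC was -0.03 (SE 0.13, 95% interval -0.32 to 0.27, limma adjusted p = 0.993), and it turned to 0.02 with upper-quartile scaling. Unlike Lag3, Tigit and Ctla4, Tox had its 2 lowest values in control 1 and cKO 1, as 20.3% of tested genes did.

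**Figure D4:**
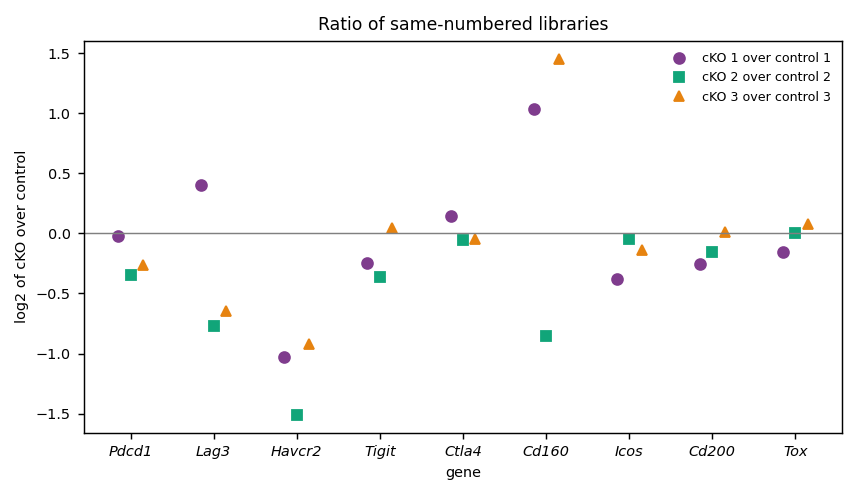
Log2 of the cKO value over the control value of the same number for each gene, 1 point per pair of libraries. All 3 Havcr2 pairs lie at or below a ratio of 0.527, the Lag3 pair of number 1 lies above 0 (ratio 1.32) and its other pairs below.

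The members differed in how steady they were. Icos and Pdcd1 varied least between libraries of a group, with within-group SDs of 0.11 and 0.13 on the log2 scale, followed by Tox (0.17), Ctla4 (0.20) and Cd200 (0.24). Havcr2 (0.39), Tigit (0.48), Cd160 (0.64) and Lag3 (0.73) varied more. Control 1 held the highest value of 4 members (Havcr2, Tigit, Icos and Cd200) and cKO 1 that of Lag3 and Ctla4. The lowest value of Lag3, Havcr2 and Ctla4 was in cKO 2. Among genes with at least 0.75 of a member's log2 range, those whose profile over the 6 libraries came closest to Havcr2 were Hpdl and Muc13 (root mean square difference of centred log2 values 0.17 and 0.24), those closest to Lag3 were Pik3ap1 and Pltp (0.12 and 0.17), and those closest to Tigit were Gpnmb and Rasgrp4 (0.10 and 0.11). For Cd160 they were Aebp1 and Adcy5 (0.12 and 0.18), for Cd200 Megf9 and 9930111J21Rik1 (0.053 and 0.066) and for Pdcd1 Cisd3 and Wdr48 (0.043 and 0.052). For the steadier genes they were Wbp5 and Sdccag8 for Ctla4, BC005537 and Baz1a for Icos, and Map2k7 and Rbbp5 for Tox, at 0.017 to 0.021.

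Of the ligands of these receptors, 10 of 13 listed symbols were found in the table and all 10 were tested. Of these, 9 had a negative log2FC (median -0.07), and 0 passed. That count and median rested on single libraries: they were 5 of 10 and 0.01 without cKO 1, 6 of 10 and -0.02 without control 2, and 9 of 10 and -0.20 without control 1. With the Y-linked share the median was -0.21 in limma. Lgals3, the gene of galectin-3, which binds LAG-3, had 2299, 2366 and 2832 normalised counts in controls 1 to 3 against 1866, 1973 and 2065 in cKO 1 to 3. Its groups did not overlap, and the log2FC was -0.34 (SE 0.10, limma adjusted p = 0.978). With the Y-linked share as a covariate it passed in edgeR (log2FC -0.35, adjusted p = 0.0481), as did 5.28% of all tested genes. Genotype and share were not fully separated in that fit. The lowest log2FC of the list was that of Pdcd1lg2, the gene of PD-L2, at -0.60 (SE 0.23, limma adjusted p = 0.978). It had 90.0 ± 20.0 and 58.9 ± 12.6 normalised counts, its groups overlapped, and it was named after its values were seen. Lgals9, the gene of the TIM-3 ligand galectin-9, had 3001 ± 113 and 2831 ± 124, and Hmgb1, another TIM-3 ligand, 5075 ± 220 and 4928 ± 470. Cd86, a ligand of CTLA-4, ran from 45.2 in cKO 1 and 56.5 in control 1 to 222 in control 2, with a log2FC of -0.09 (SE 0.63) on genotype alone and -0.87 in edgeR with the covariate (adjusted p = 0.0472). Its group means, 133 ± 83.8 and 128 ± 79.0, were nearly equal, so the larger value depends on the adjustment for the share.

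Of 9 tested genes of other inhibitory receptors, 6 had negative and 3 positive log2FC (median -0.10). Without control 1 the median was 0.01 with 4 of 9 negative, without control 3 it was -0.04 and without cKO 2 it was -0.06. Btla, whose product shares the ligand HVEM with CD160, had 1927 ± 160 and 1855 ± 226 normalised counts, and Cd5, a damper of antigen receptor signals, 3282 ± 163 and 3333 ± 220. Lilrb4, an inhibitory receptor gene known mostly from myeloid cells, had 426 ± 120 and 307 ± 49.1, a log2FC of -0.44 (SE 0.23). It passed in edgeR with the covariate (log2FC -0.64, adjusted p = 0.0468), as did 5.28% of all tested genes. The adenosine receptor gene Adora2a had 588 ± 14.9 and 547 ± 39.4. Among 9 tested costimulatory receptor genes outside the TNF receptor family, 7 had a negative log2FC, the median was -0.04 (0.01 with upper-quartile scaling) and the groups overlapped at each of the 9. Without cKO 3 the median was 0.01 with 4 of 9 negative, and with any other library left out it was -0.12 to -0.04. Cd28, the main costimulator, had 9150 ± 618 and 8414 ± 562, Cd2, an adhesion and costimulatory receptor, 6861 ± 668 and 7519 ± 1340, and Ly9, of the SLAM family, 1917 ± 218 and 1903 ± 270. None of these 18 receptor genes passed on genotype alone.

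Genes that signal from, move or degrade the receptors stood near 0, with a negative log2FC at 12 of 20 (median -0.02, or 0.02 with upper-quartile scaling and -0.04 to 0.02 with 1 library left out, the highest without control 1). The phosphatase gene Ptpn2 had groups that did not overlap, at 2066, 1965 and 2044 against 1939, 1959 and 1841 normalised counts, a log2FC of -0.08 (SE 0.07). Pik3cd, the PI3 kinase subunit gene used by CD28 and ICOS, had a log2FC of 0.02 (SE 0.07), the ubiquitin ligase gene Cblb -0.07 (SE 0.07) and Bag6, whose product binds the TIM-3 tail, -0.08 (SE 0.07).

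Transcription factors known to act on these genes had a negative log2FC at 18 of 22 (median -0.17), and 0 passed the test. The median was -0.10 without control 1, -0.11 without control 2 and -0.05, with 15 of 22 negative, in the libraries numbered 2 and 3 alone. Groups did not overlap at 5 of the 22: Tbx21, Nr4a2, Foxp3 and Prdm1 were lower in cKO and Bcl6 higher, beside 5.64% of all tested genes lower and 4.51% higher without overlap. Prdm1, the gene of Blimp-1, was named after its values were seen (878 ± 87.5 and 749 ± 46.8 normalised counts). Tbx21, whose product T-bet is known to drive Havcr2 and restrain Pdcd1, had 1660, 1961 and 1760 normalised counts in controls 1 to 3 against 1371, 1501 and 1489 in cKO 1 to 3, a log2FC of -0.30 (SE 0.09, limma adjusted p = 0.978). It passed in edgeR with the Y-linked share as a covariate (log2FC -0.34, adjusted p = 0.0218), a fit that called 5.28% of all tested genes. Irf4, which responds to antigen receptor strength, had 3363, 4830 and 3816 in controls 1 to 3 against 2113, 3482 and 3308 in cKO 1 to 3, overlapping values with a log2FC of -0.45 (SE 0.21). With the covariate Irf4 passed too (edgeR log2FC -0.67, adjusted p = 0.00196). Bcl6, the follicular helper factor, was higher in every cKO library, at 173, 136 and 124 against 116, 108 and 81.4, a log2FC of 0.50 (SE 0.20, limma adjusted p = 0.978). Nr4a2, an orphan receptor gene induced by antigen, had 14.8, 19.6 and 13.2 in controls 1 to 3 against 7.03, 9.94 and 12.9 in cKO 1 to 3. Its lowest control and highest cKO library were almost equal, at counts near the filter value of 10. The log2FC was -0.64 (SE 0.34, limma adjusted p = 0.978). The NFAT genes Nfatc2 and Nfatc3 had log2FC of -0.09 (SE 0.08) and -0.09 (SE 0.10), and Tcf7, the gene of the stem-like factor TCF-1, -0.03 (SE 0.08).

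**Figure D5:**
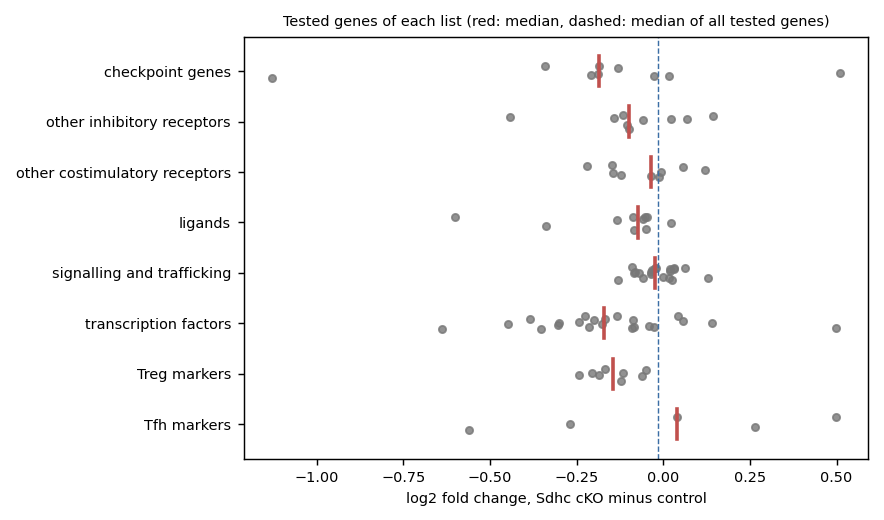
Log2FC of every tested gene in each list (grey points, jittered vertically), with the list's median in red and the median of all tested genes as a dashed line at -0.01. The checkpoint genes have a median of -0.19 with Havcr2 at the far left (-1.13), and the transcription factors one of -0.17.

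Several checkpoint genes also mark regulatory and follicular helper T cells, so markers of those cells were read beside them. All 8 regulatory T cell markers found by symbol, of 9 symbols listed, had a negative log2FC (median -0.15), and 0 passed the test. With the Y-linked share 6 of the 8 were negative, and the median was -0.21 in limma and -0.20 in edgeR. With 1 library left out the median was -0.21 to -0.09, nearest 0 without cKO 1. Foxp3, their defining factor, had 282, 263 and 230 normalised counts in controls 1 to 3 against 216, 227 and 210 in cKO 1 to 3, which did not overlap (log2FC -0.24, SE 0.12). The sum of the 8 was 37762 to 42606 in the controls and 34821 to 39087 in the cKO libraries, most of it Il2ra, which all activated T cells express. Folr4 had 4460 ± 803 and 4337 ± 1229, and Lrrc32, the gene of the TGF-beta carrier GARP, 966 ± 221 and 881 ± 158. Of 5 tested follicular helper markers, 2 had negative and 3 positive fold changes: Il21 had a log2FC of -0.56 (SE 0.25), Cxcr5 -0.27 (SE 0.29), Il6ra 0.26 (SE 0.12) and Bcl6 the value given above. Ascl2 and Sostdc1 stayed below 10 in every library. The part of these cells in the Icos, Ctla4 and Tigit levels was not tested.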

How the data were processed

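RNA-seq values of 6 libraries of mouse Th1 cells, 3 control and 3 Sdhc cKO, were used, grouped by the genotype label. STAR, HTSeq, DESeq2 and the build mm10 are named in the submitters' processing notes; the sources used here give no versions, annotation or strand setting. Each deposited value is a signal, a gene's reads over the library's size factor. The smallest non-zero value of a library is 1 read, and 100% of its values, divided by it, lay within 0.01 of a whole number, which gave the reads back. For cKO 1 the step (1.004) is so near 1 that such a check is less telling than for the other libraries.

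The 9 members and the gene lists were chosen with earlier results of these data known. List genes were matched by symbol alone, so a gene that the expression table holds under another symbol counts as not found. As the values are normalised, the main test was limma-trend (version 3.58.1 of limma in R 4.3.3) of genotype on log2(value + 1). It covered the 12699 genes above 10 in 3 or more libraries, with p-values adjusted over all of them by Benjamini-Hochberg at 0.05. Fold changes on this scale come out too small for low genes; the SE is limma's moderated one. For single genes an exact permutation test (2-sided) was added. Alternatives were other scalings, filters and pseudocounts, array weights, limma-voom, edgeR 4.0.16 and DESeq2 1.42.0 on recovered reads, the replicate number as a block, the share of reads on Ddx3y, Kdm5d, Uty and Eif2s3y as a covariate, and each library left out. Same-numbered libraries deviated together from their group means for numbers 1 and 2 (correlation across genes 0.579 and 0.458), although the labels state no pairing. For number 3 the correlation was 0.188, below the 0.272 between control 2 and cKO 3. Deviations were taken from the mean of a group's own 3 libraries, so these correlations are not independent of each other.

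Named genes were the 9 members and, from each list, the 3 most abundant tested genes, any gene called by limma on genotype, with the block, or by edgeR with the covariate, and up to 2 genes in each direction whose groups did not overlap. The limma and edgeR fits on genotype were tested on simulated data. With the spread taken from genotype alone, limma recovered 26% of changes of 1.5-fold and 86% of changes of 2-fold. In edgeR these were 32% and 88%. Of the unchanged genes, limma called 11 and edgeR 13. Genes were simulated independently, without the axis of variation on which control 1 and cKO 1 stood apart. At each of 1.5-, 2-, 3- and 4-fold, 50 genes of any level were changed. The recovered shares therefore do not hold for a gene with as few reads as Havcr2 or Cd160. They also do not hold where few genes change, since the adjustment depends on how many do. The fits with a covariate or block were not simulated. Symbols were placed on GENCODE M21 (GRCm38, the assembly of mm10), and lengths are merged exons. Promoter sequences are from RefSeq (GRCm38.p6).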

Additional observations from a re-analysis of the deposited data

How the results depend on the processing

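Pdcd1, Havcr2, Icos and Cd200 kept a negative fold change under all 21 alternatives, and Cd160 a positive one under the 20 that tested it. No member passed the adjusted threshold under any alternative; the lowest adjusted p was 0.0528, for Havcr2 with the Y-linked share in limma. The number of genes called over all genes was 0 on genotype alone (445 at an unadjusted p under 0.05) and 2 with DESeq2 (Ifng and Dleu2). It was 1 (Ifng) with array weights, whose estimation stopped before it converged, and 1 (Ifng) with the replicate block. It was 826 with the Y-linked share in limma, 670 with it in edgeR, and 1 (Fosb) in the libraries numbered 2 and 3 alone, an alternative chosen after seeing the data. With 1 library left out it was 0 to 1 (Xist, without cKO 1). edgeR and limma-voom on genotype alone called 0, with 455 and 433 at an unadjusted p under 0.05. The block changed no member's call. The Y-linked share turned Lag3 to 0.163 in limma and 0.187 in edgeR, and Tigit to 0.0826 and 0.0638. Ctla4 was -0.033 with array weights and -0.0493 in the libraries numbered 2 and 3 alone; Tox was 0.0175 with upper-quartile scaling, 0.0315 with array weights and 0.0378 in those 4 libraries. With 1 library left out, Lag3 ranged from -0.897 to 0.00699, Tigit from -0.439 to 0.0961, Ctla4 from -0.108 to 0.133 and Tox from -0.116 to 0.0807. The cause of these changes was not tested. The members' median was -0.06 with the Y-linked share, with 5 of 9 negative, and -0.24 to -0.07 with 1 library left out. Reads limit Cd160 (9 to 28 per library) and Havcr2 (24 to 93).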
